A study of Saccharomyces cerevisiae with 14 samples.

Results

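Catalases, superoxide dismutases and peroxidases of budding yeast were followed through entry into quiescence, in cells that lacked the histone deacetylase gene RPD3 and in wild-type cells. The 10 genes CTT1, CTA1, SOD1, SOD2, PRX1, TSA1, TSA2, AHP1, GPX1 and GPX2 were chosen by name among the 6598 genes of the table used here, and all 10 had a value in every condition. Both genotypes were in the W303 strain background, and each was harvested 3 times. Log cells were growing cultures at an OD600 between 0.4 and 0.6. DS (diauxic shift) cells were taken 2 hours after glucose ran out. Q (quiescent) cells were a Percoll-purified fraction of cultures left for 7 days. The rpd3 deletion strain had 2 libraries per harvest, 1 per isolate, and wild type had 2 in DS and Q and 4 in log, where each of 2 isolates was prepared with 0.2 and 1 equivalents of ERCC spike-in RNA. The deposited table holds 1 value for each of the 6 conditions, so no value below has an SD or a test, and "higher" and "lower" compare single numbers. Read depth is unknown.

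Respiring cells make superoxide and hydrogen peroxide as by-products. Superoxide dismutases turn superoxide into hydrogen peroxide, with Sod1 (copper and zinc) mostly in the cytosol and Sod2 (manganese) in the mitochondrial matrix. The peroxide is then removed by catalases, which are heme enzymes and need no reducing partner, or by peroxiredoxins and glutathione peroxidase-like enzymes, which draw electrons from thioredoxin or glutathione and so from NADPH. Ctt1 is the cytosolic catalase and Cta1 that of peroxisomes and mitochondria. Tsa1, Tsa2 and Ahp1 are cytosolic peroxiredoxins, Prx1 is the mitochondrial one, and Gpx1 and Gpx2 act on hydroperoxides, those of lipids included. In yeast the stress factors Msn2 and Msn4, which bind AGGGG, and the oxidant sensor Yap1, which binds TTACTAA or TGACTAA, are known activators of genes of this kind. Rpd3 is recruited to many promoters, for example by the repressor Ume6, which binds GGCGGC.

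Levels are given as FPKM, a read count per gene length and library size, which the authors rescaled so that columns compare RNA per cell. Changes are differences of log2(FPKM + 1), where 1 log2 unit is 2-fold. On this scale the median gene stood at 50.2, 33.9 and 19.0 FPKM in log, DS and Q cells of the mutant, against 38.0, 20.1 and 1.37 FPKM in wild type. Changes are therefore read beside the median change of all genes, and again after each column was rescaled to the same median ("centred columns"). RPD3 had no value in mutant log cells and was at 0.941 and 0.0279 FPKM in mutant DS and Q cells, against 70.8, 37.7 and 2.35 FPKM in the wild-type log, DS and Q cells. The stationary phase gene SPG4 was at 2.83, 307 and 1820.3 FPKM in mutant log, DS and Q cells, against 2.59, 1092 and 705.7 FPKM in wild type. The gluconeogenic gene PCK1, a marker of glucose exhaustion, was at 5405 FPKM in mutant DS cells and at 4142 FPKM in wild-type DS cells, against 4.67 and 5.62 FPKM in their log cells. Other markers lay further apart in DS cells. SPG1 and HSP26, markers of quiescence, were there at 119 and 843 FPKM in the mutant, against 798 and 6649 FPKM in wild type. In Q cells they were at 2110 and 771 FPKM in the mutant, against 1487 and 444 FPKM in wild type. The growth marker RPS22A was at 508 and 147 FPKM in mutant DS and Q cells, against 68.1 and 2.02 FPKM in wild type.

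The upstream sequences of 5 genes are shown because their transcripts behaved differently on the way into quiescence. The lines give stretches 5′ to 3′ on the strand of the gene, read from the S288C reference, build R64 (RefSeq). The authors' build is not given in the sources used here, and W303 may differ from S288C at single bases. Capitals mark matches, on either strand, to the Msn2/Msn4 letters (AGGGG), either form of the Yap1 letters or the Ume6 letters given above. None of the 10 genes overlaps another gene in that annotation.
CTT1, chrVII:654214-654303, plus strand: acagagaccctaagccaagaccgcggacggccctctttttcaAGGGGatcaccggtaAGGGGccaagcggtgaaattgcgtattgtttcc
GPX1, chrXI:390104-390223, minus strand: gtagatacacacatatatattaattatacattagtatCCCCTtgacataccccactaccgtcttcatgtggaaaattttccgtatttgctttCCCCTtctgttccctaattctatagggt
TSA2, chrIV:1365903-1366002, minus strand: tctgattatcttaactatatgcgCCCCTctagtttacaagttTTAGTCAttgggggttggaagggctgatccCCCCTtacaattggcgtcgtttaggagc
CTA1, chrIV:969891-969980, minus strand: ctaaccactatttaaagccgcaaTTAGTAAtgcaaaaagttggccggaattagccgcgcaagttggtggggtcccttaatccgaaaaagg
PRX1, chrII:101317-101406, minus strand: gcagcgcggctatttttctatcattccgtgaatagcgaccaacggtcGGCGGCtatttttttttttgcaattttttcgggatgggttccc

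The CTT1 stretch holds AGGGG at 378 and 363 bases before the start codon, and another copy lies on the other strand at 133. GPX1 and TSA2 hold 2 copies each, at 303 and 248 and at 317 and 268 bases, all on the other strand. Of the genes whose sequence is not shown, AHP1 holds 3 copies in 500 bases and TSA1 holds 2. SOD1, SOD2, PRX1 and GPX2 hold 1 copy each in such a window. CTA1 was the only one of the 10 genes with no AGGGG in the 500 bases before its start codon. Over 6000 nuclear genes with a full window of that length, 34.1% held AGGGG, 8.13% held 2 or more copies and 1.83% held 3 or more. TTACTAA was in 11.8% of windows and in 6 of the 10 genes, TGACTAA in 5.97% and in TSA2 and GPX1. GGCGGC was in 9.57% of windows and in PRX1 alone of the 10 genes. CCAAT, bound by the Hap2/3/4/5 activator of respiration, was in 62.4% of windows and in 8 of the genes, and TATAAA was in 60.5% and in 8. The Hap1 element was in 0.35% and in 0 of the genes. A match is a string of letters, not a measured binding site.

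SOD1, TSA1 and AHP1 had the highest levels of the 10 in log cells of both genotypes, and SOD1 and TSA1 in DS cells. SOD1 was at 2183, 3613 and 407 FPKM in log, DS and Q cells of the mutant, against 1334, 2776 and 70.2 FPKM in wild type. TSA1 was at 3134, 2833 and 243 FPKM in the mutant, against 1541, 1557 and 4.64 FPKM in wild type. AHP1 was at 2527, 571 and 213 FPKM in the mutant and 725, 688 and 103 FPKM in wild type. In wild-type Q cells the order was another: CTA1 was the highest of the 10, at 124 FPKM, followed by AHP1 and SOD1, and TSA1 had moved to the eighth place. In mutant Q cells SOD1, TSA1 and AHP1 kept the top places, followed by CTA1 at 206 FPKM. The lowest values of all were those of TSA2 and GPX2 in wild-type Q cells, at 0.286 and 0.991 FPKM, the only values of the 10 genes under 1 FPKM. The 10 genes together made up 0.593%, 1.16% and 0.458% of the summed FPKM of the table in mutant log, DS and Q cells, against 0.286%, 1.25% and 0.742% in wild type.

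**Figure D1:**
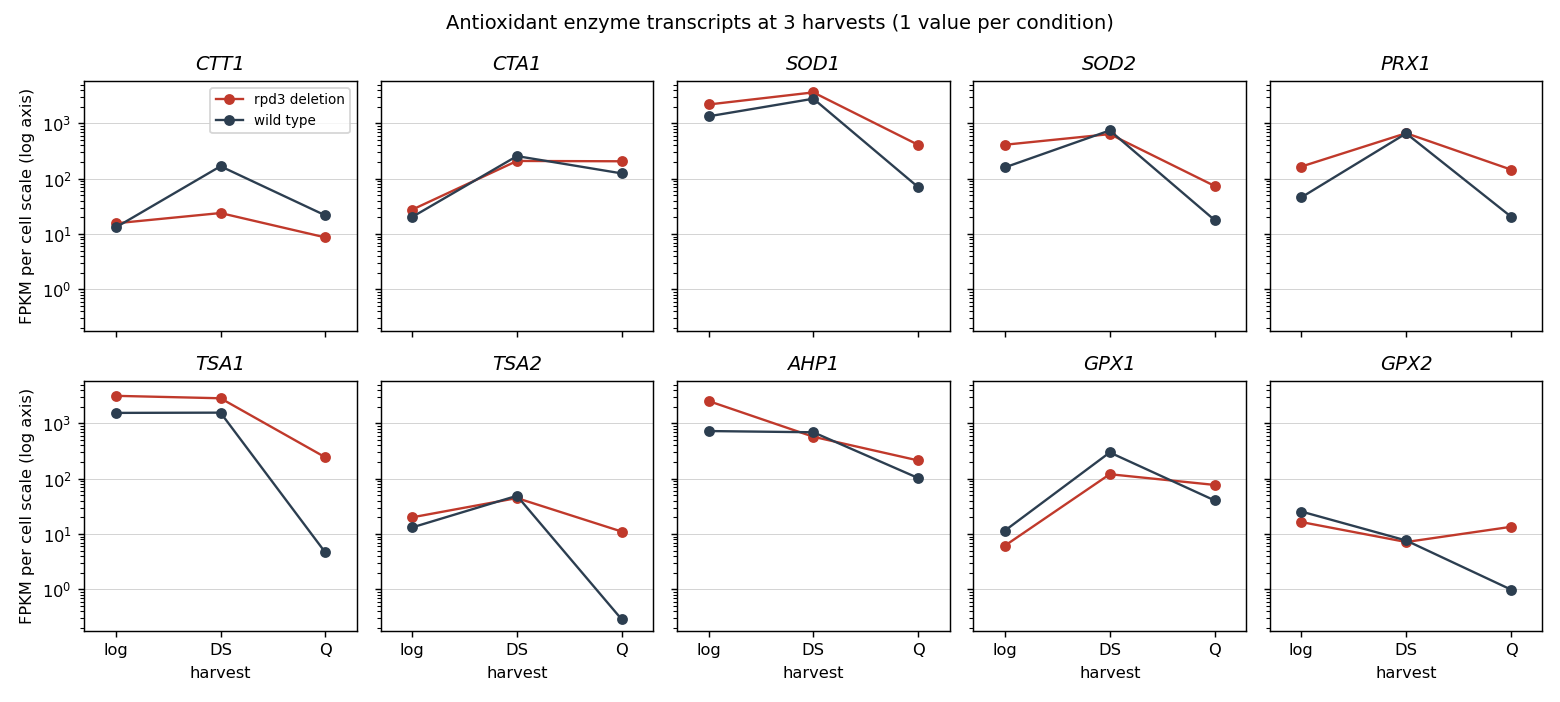
FPKM per cell (log axis) of each of the 10 genes in log, DS and Q cells, with the rpd3 deletion in red and wild type in dark blue; each point is the authors' value for a condition and has no error bar. CTT1 is 23.9 FPKM in mutant DS cells and 167 FPKM in wild-type DS cells, and TSA1 is 243 FPKM in mutant Q cells and 4.64 FPKM in wild-type Q cells.

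At the diauxic shift GPX1, CTA1, PRX1 and TSA2 were at least 2-fold higher than in log cells in both genotypes, and CTT1, SOD1 and SOD2 in wild type. GPX2 was at least 2-fold lower in both, and AHP1 in the mutant. In the mutant 4 of the 10 genes were at least 2-fold higher in DS than in log cells, against 7.54% of all 6362 genes, and AHP1 and GPX2 were lower, as were 28.6% of all genes. The median change was 0.68 over the 10 genes and -0.52 over all. In wild type, 7 of the 10 genes were at least 2-fold higher, against 9.91% of all 6519 genes. GPX2 was the gene at least 2-fold lower, as were 44.2% of all genes. There the median change was 2.02 over the 10 genes and -0.85 over all genes. With centred columns the count of higher genes was 7 in the mutant and 7 in wild type, and the lower ones numbered 1 and 0. Over all genes centring gave 897 higher and 827 lower in the mutant (480 and 1819 as deposited), and 1318 and 1434 in wild type (646 and 2881 as deposited).

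The 4 genes that were higher in the DS cells of both genotypes were GPX1, CTA1, PRX1 and TSA2. GPX1 was at 120.3 FPKM in DS and 6.16 in log cells of the mutant (log2 change 4.08), and at 298 and 11.5 FPKM in wild type (4.57). CTA1 was at 209 and 27.5 FPKM in the mutant (2.88) and at 255 and 20.3 FPKM in wild type (3.59). PRX1, the mitochondrial peroxiredoxin, was at 662 FPKM in the DS cells of the mutant and 656 FPKM in those of wild type. Its log level was 165 FPKM in the mutant and 45.9 FPKM in wild type, so the change was smaller in the mutant (2.00 and 3.81). TSA2, the low-level paralog of TSA1, was at 44.6 and 20.0 FPKM in the mutant (1.12) and at 49.0 and 13.2 FPKM in wild type (1.82).

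CTT1, SOD1 and SOD2 passed 2-fold in wild type and not in the mutant. CTT1 was at 23.9 FPKM in DS and 15.6 in log cells of the mutant (0.59), and at 167 and 13.1 FPKM in wild type (3.58). SOD2 was at 637 and 409 FPKM in the mutant (0.64), against 742 and 159.7 FPKM in wild type (2.21). The DS levels of SOD2 thus lay close together and its log levels apart, whereas for CTT1 the log levels lay close together and the DS levels apart. For SOD1 the changes were 0.73 in the mutant and 1.06 in wild type. With centred columns the changes of CTT1 (1.12), SOD1 (1.29) and SOD2 (1.20) in the mutant passed 2-fold as well.

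TSA1 stayed near its log level in DS cells, with changes of -0.15 in the mutant (0.42 with centred columns) and 0.01 in wild type (0.93). AHP1, the peroxiredoxin that acts on alkyl hydroperoxides, did so in wild type (-0.07, and 0.84 centred), but in the mutant it was at 571 FPKM in DS and 2527 FPKM in log cells (-2.14). GPX2 was lower in the DS cells of both genotypes, at 7.17 and 16.4 FPKM in the mutant (-1.09) and 7.64 and 25.5 FPKM in wild type (-1.62). With centred columns GPX2 was no longer past 2-fold (-0.57 in the mutant and -0.78 in wild type), and with a pseudocount of 10 it was at -0.62 in the mutant and -1.01 in wild type. Subtracting the wild-type change from log to DS cells from that of the mutant gave -2.99 for CTT1, -2.07 for AHP1, -1.81 for PRX1 and -1.57 for SOD2, with a median of 0.40 over all genes. The result was between -0.71 and 0.52 for the other 6 genes.

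In quiescent cells CTA1 and GPX1 were at least 2-fold above their log level in both genotypes, and TSA1 was the one farthest below it. In the mutant, CTA1 (2.86) and GPX1 (3.45) were at least 2-fold higher in Q than in log cells, against 4.36% of all 6396 genes. SOD1 (-2.42), SOD2 (-2.46), TSA1 (-3.68) and AHP1 (-3.56) were lower, as were 64.9% of all genes, whose median change was -1.39. In wild type CTA1 (2.56) and GPX1 (1.73) were again the higher genes, against 1.84% of all 6425 genes, and 7 of the 10 were lower, as were 93.2% of all genes. The median change in wild type was -2.95 over the 10 genes and -3.87 over all. Centring gave 1043 higher and 1241 lower genes in the mutant (279 and 4153 as deposited), and 1843 and 2141 in wild type (118 and 5990 as deposited).

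The change of TSA1 in wild type was -8.10, and it remained negative with centred columns (-3.57). TSA2 was at 11.1 FPKM in Q and 20.0 in log cells of the mutant (-0.80), and at 0.286 and 13.2 FPKM in wild type (-3.46). Near 1 FPKM the size rests on the pseudocount, and the wild-type change was -5.10 with 0.1 and -1.17 with 10. With centred columns TSA2 was at 0.52 in the mutant and -0.66 in wild type. CTT1 lay between on the deposited scale. It was at 8.67 FPKM in Q and 15.6 in log cells of the mutant (-0.78, and 0.52 with centred columns). In wild type CTT1 was at 21.7 and 13.1 FPKM (0.68, and 5.41 with centred columns). PRX1 (-0.18) and GPX2 (-0.27) were not past 2-fold in the mutant, and with centred columns they were at 1.21 and 1.06. For 5 genes the direction in wild-type Q cells rests on the per-cell scale. SOD1 (-4.23), SOD2 (-3.09), PRX1 (-1.12), AHP1 (-2.81) and GPX2 (-3.73, and -1.69 with a pseudocount of 10) were lower than in log cells as deposited. With centred columns their changes were 0.55, 1.63, 3.61, 1.97 and 0.11.

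From DS to Q cells, 7 of the 10 genes were at least 2-fold lower in the mutant, against 40.6% of all 6304 genes, and 0 were higher, against 2.68%. In wild type all 10 were lower, as were 94.6% of all 6420 genes, and 0 were higher, against 0.171%. TSA1 had the lowest change of the 10 in both, at -3.54 in the mutant and -8.11 in wild type, beside medians of all genes of -0.81 and -2.90. CTA1 differed least, by -0.02 in the mutant (0.81 with centred columns) and -1.03 in wild type. GPX2 was at 13.5 FPKM in Q and 7.17 in DS cells of the mutant (0.83), and at 0.991 and 7.64 FPKM in wild type (-2.12, and -0.68 with a pseudocount of 10). In wild type the changes of CTT1, CTA1, AHP1, GPX1 and GPX2 (-2.89, -1.03, -2.73, -2.85 and -2.12) turned positive with centred columns, to 0.93, 2.84, 1.13, 1.00 and 0.89. Centring gave 566 higher and 1014 lower genes in the mutant (169 and 2557 as deposited) and 1508 and 1682 in wild type (11 and 6076 as deposited).

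Between genotypes, 4 of the genes were at least 2-fold higher in the mutant during growth, CTT1 and GPX1 were lower at the diauxic shift, and CTT1 was still lower in quiescence. In log cells PRX1 was at 165 FPKM in the mutant and 45.9 FPKM in wild type (1.83), and AHP1 at 2527 and 725 FPKM (1.80). SOD2 (1.35) and TSA1 (1.02) were also higher. The catalase genes differed little at this harvest: CTT1 was at 15.6 FPKM in the mutant and 13.1 FPKM in wild type (0.23, and -0.14 with centred columns), and CTA1 at 27.5 and 20.3 FPKM (0.42). These were 4 of 10 genes, against 10.2% of all 6479 genes, and 0 were lower, against 3.38%. The median difference was 0.64 over the 10 genes and 0.25 over all. With centred columns PRX1 (1.43) and AHP1 (1.40) kept a 2-fold difference, SOD2 (0.95) and TSA1 (0.62) did not, and GPX1 (-1.15) was past 2-fold in the other direction. Over all genes centring gave 259 higher and 394 lower (658 and 219 as deposited).

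In DS cells CTT1 was at 23.9 FPKM in the mutant and 167 FPKM in wild type, 7.00-fold lower in the mutant as a plain ratio of FPKM. Its difference of log2(FPKM + 1) was -2.76, which is 6.76-fold. GPX1 was at 120.3 and 298 FPKM (-1.30). These 2 genes of 10 were at least 2-fold lower, against 3.61% of all 6393 genes, and 0 were higher, against 31.3%. Counted from the lowest, the difference of CTT1 was the 40th and that of GPX1 the 166th of those genes. The other 8 genes were between -0.29 (CTA1) and 0.86 (TSA1), where the median of all genes was 0.64. With centred columns CTT1 (-3.51), GPX1 (-2.05), CTA1 (-1.04) and AHP1 (-1.02) were past 2-fold, and over all genes 685 were higher and 614 lower (2003 and 231 as deposited).

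In Q cells CTT1 was at 8.67 FPKM in the mutant and 21.7 FPKM in wild type (-1.23). It was 1 of the 22 genes, 0.343% of 6419, that were at least 2-fold lower in the mutant, and its difference was the 18th from the lowest. With a pseudocount of 10 it was -0.76. At the other end, TSA1 was at 243 FPKM in the mutant and 4.64 FPKM in wild type (5.44), beside a median of 2.81 for all genes. TSA2 (3.23), GPX2 (2.86), PRX1 (2.76), SOD1 (2.52), SOD2 (1.99) and AHP1 (1.05) were higher as well. In all 7 of 10 genes were at least 2-fold higher, against 94.5% of all genes. TSA2 was at 4.85 with a pseudocount of 0.1 and 1.03 with 10, and GPX2 at 1.096 with 10. CTA1 (0.72) and GPX1 (0.91) were not past 2-fold.

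Since nearly all genes were higher in mutant Q cells, each difference is set beside the median of 2.81. That median is itself compressed by the pseudocount, as the median gene of wild-type Q cells was at 1.37 FPKM. Relative to that median TSA1 was at 2.62 and TSA2 at 0.42, while CTT1 was at -4.04, CTA1 at -2.09, GPX1 at -1.90 and AHP1 at -1.77. With centred columns TSA1 (1.91) and TSA2 (1.37) remained higher in the mutant. SOD1 (-1.26), SOD2 (-1.74), PRX1 (-0.97), AHP1 (-2.74) and GPX2 (-0.03) turned to lower, and CTT1 (-5.04), CTA1 (-3.06) and GPX1 (-2.86) were lower by more than 4-fold. Over all genes centring gave 1427 higher and 1727 lower (6069 and 22 as deposited).

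**Figure D2:**
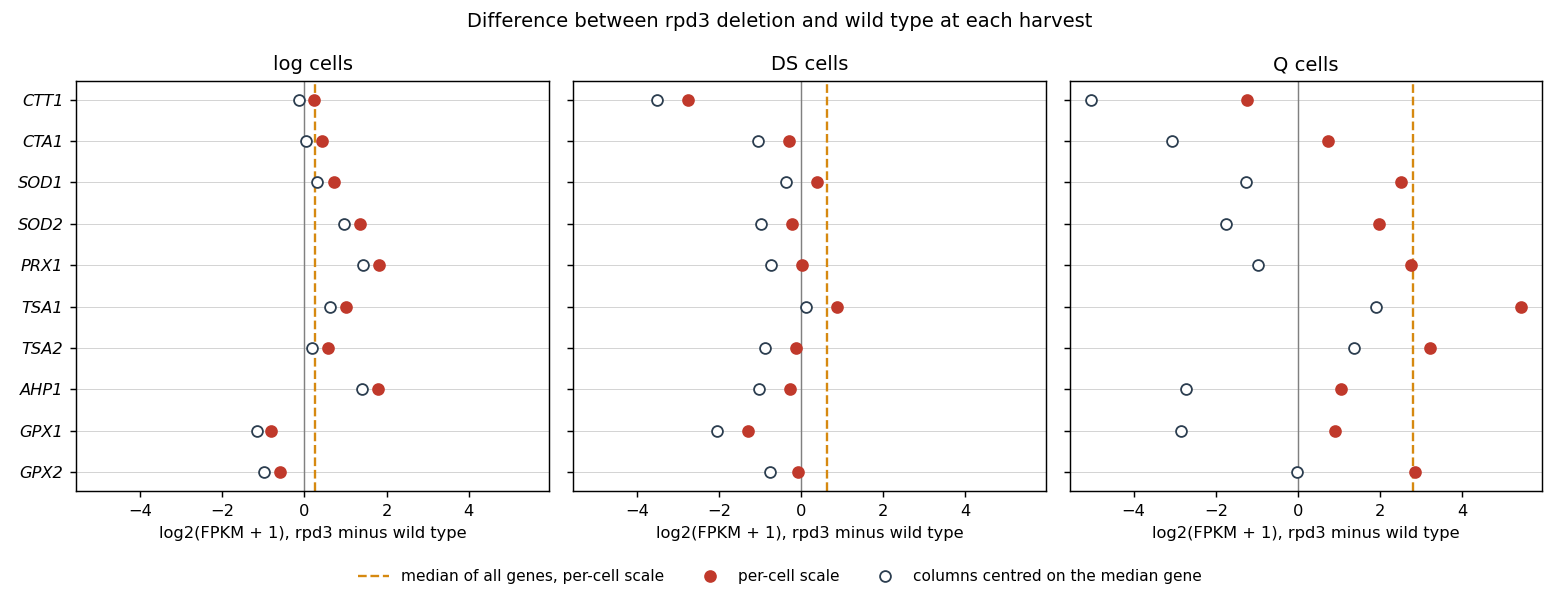
Difference of log2(FPKM + 1), rpd3 deletion minus wild type, for each gene in log, DS and Q cells; filled points are on the deposited per-cell scale, open points after centring each column on its median gene, and the dashed line is the median of all genes (0.25, 0.64 and 2.81). CTT1 lies left of 0 in DS and Q cells on both scales, and TSA1 lies right of 0 at every harvest on both scales.

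Ratios between the genes of a column do not depend on how the column was scaled, and FPKM is per length, so they compare the paralogs directly. The peroxisomal catalase transcript exceeded the cytosolic one throughout. CTA1 was 1.76, 8.72 and 23.7 times CTT1 in log, DS and Q cells of the mutant, against 1.54, 1.53 and 5.74 times in wild type. In the mutant this ratio thus rose from log to DS cells, whereas in wild type it stayed nearly the same. SOD1 was 5.33, 5.67 and 5.52 times SOD2 in the mutant, against 8.36, 3.74 and 3.93 times in wild type. TSA1 was 157, 63.5 and 21.9 times TSA2 in the mutant, against 117, 31.8 and 16.2 times in wild type. The last of these rests on a TSA2 level of 0.286 FPKM.

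TSA1 and TSA2 are paralogs, and their coding sequences in the reference are 78.5% identical over 591 bases, with no identical run longer than 14 bases. The longest identical run between GPX1 and GPX2 was 20 bases. TSA1 against AHP1 differed most with genotype in Q cells: the ratio was 1.24, 4.96 and 1.14 in mutant log, DS and Q cells, against 2.13, 2.26 and 0.0452 in wild type. GPX1 was 0.375, 16.8 and 5.71 times GPX2 in the mutant, against 0.453, 39.0 and 40.8 times in wild type. The ratio in wild-type Q cells rests on a GPX2 level of 0.991 FPKM. PRX1 was 0.404, 1.04 and 1.97 times SOD2, its companion in mitochondria, in the mutant, and 0.287, 0.883 and 1.15 times in wild type.

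The rank of a gene in its column is also free of the scale. CTT1 ranked 5400th, 4112th and 5277th from the top in log, DS and Q cells of the mutant, against 5330th, 534th and 306th in wild type. It thus stayed among the lower-ranked transcripts of the mutant at all 3 harvests. CTA1 ranked 4629th, 629th and 170th in the mutant, against 4653rd, 361st and 45th in wild type. GPX1 ranked 5950th, 1065th and 678th in the mutant, against 5454th, 308th and 152nd in wild type. TSA1 ranked 116th, 23rd and 131st in the mutant, against 183rd, 49th and 1428th in wild type. SOD1 was between the 16th and 159th place in the mutant and between the 23rd and 192nd in wild type. TSA2 was at best in the 1694th place, in wild-type DS cells. GPX2 was at best in the 3763rd, in wild-type Q cells. It was there at 0.991 FPKM, in a column where 42.1% of genes were below 1 FPKM.

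**Figure D3:**
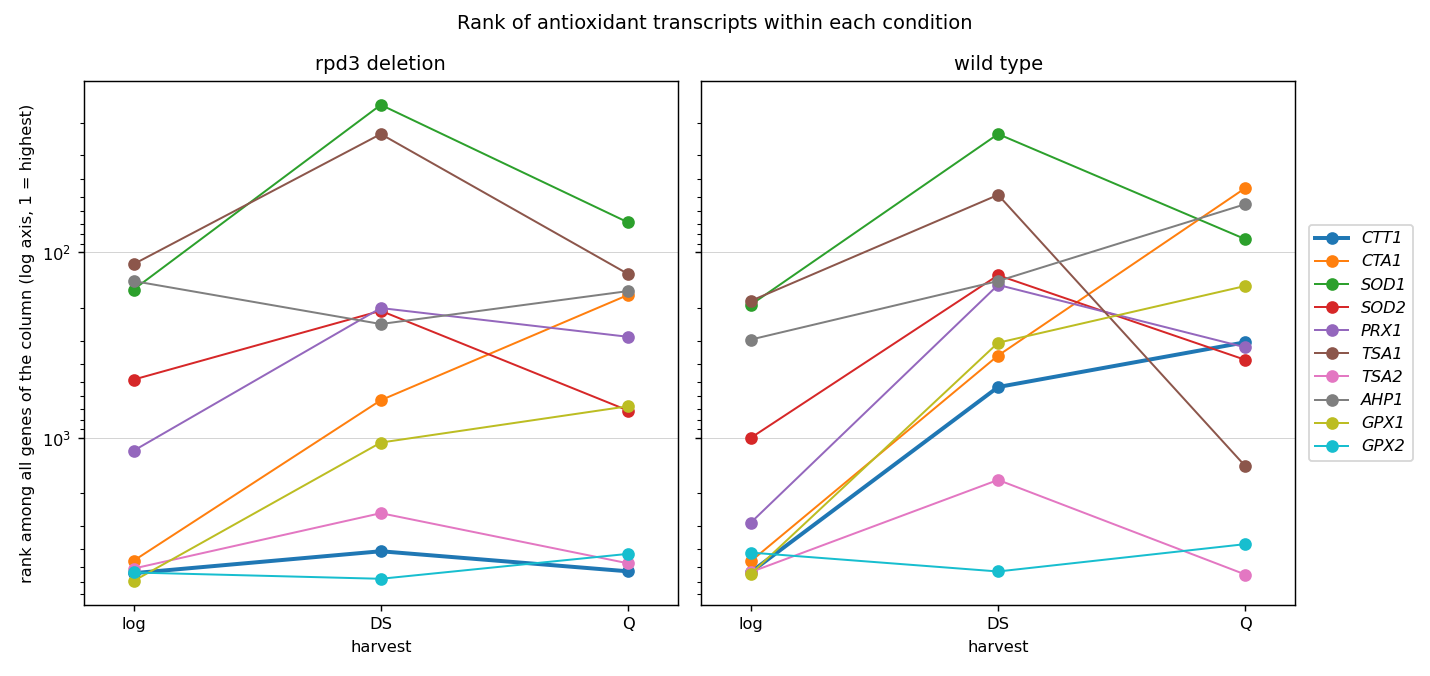
Rank of each gene among all genes of its column (log axis, 1 is the highest FPKM) in log, DS and Q cells, with the rpd3 deletion on the left and wild type on the right. CTT1 (thick blue line) ends at rank 5277 in the mutant and 306 in wild type, and TSA1 ends at 131 in the mutant and 1428 in wild type.

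The AGGGG copies upstream of CTT1 and GPX1, shown above, were set beside those of all genes. The other strings of letters were not split by copies in this way, so there is no other element to compare with. The difference between genotypes in DS cells had a median of 0.73 over 3554 genes with no copy in 500 bases and 0.56 over 1399 genes with 1 copy. It was 0.34 over 348 genes with 2 copies and 0.07 over 100 genes with 3 or more. With centred columns the 4 medians were 0.03, -0.15, -0.40 and -0.56. The share of genes at least 2-fold lower in the mutant was 2.17%, 4.29%, 11.8% and 18.0% in that order. For DS against log cells the medians were -0.62, -0.49, -0.20 and -0.11 in the mutant, against -1.02, -0.67, -0.20 and 0.46 in wild type. CTT1 (-2.76), with 3 copies, lay below the lower quartile of its class (-0.60), and AHP1 (-0.27), also with 3, did not. With 2 copies GPX1 (-1.30) lay below the lower quartile (-0.20), and TSA1 (0.86) and TSA2 (-0.13) did not. With 1 copy SOD2 (-0.22), PRX1 (0.01) and GPX2 (-0.08) lay below the lower quartile (0.13), and SOD1 (0.38) did not. CTA1 (-0.29), with no copy, lay below that of its class (0.31). Members below the lower quartile were thus found in every class. The values of MSN2 were 12.6 FPKM in mutant DS cells and 10.5 FPKM in wild-type DS cells, and those of MSN4 were 25.5 and 32.6 FPKM. Their part in the result was not tested.

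**Figure D4:**
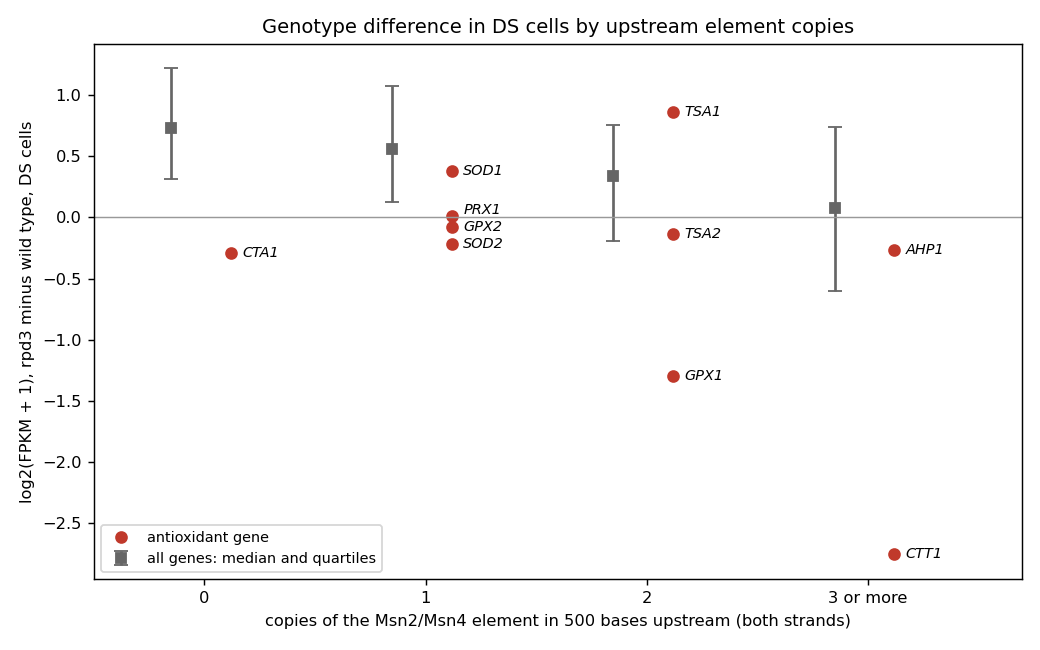
Difference of log2(FPKM + 1), rpd3 deletion minus wild type, in DS cells against the number of copies of the Msn2/Msn4 element in the 500 bases before the start codon, both strands counted. Grey squares and bars are the median and quartiles of all genes in a class, which run from 0.73 with no copy to 0.07 with 3 or more; red points are the 10 genes, of which CTT1 (-2.76) and GPX1 (-1.30) are the lowest.

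The partners of these enzymes were described from 8 lists of 73 other genes. The thioredoxin system, which reduces the peroxiredoxins, had 4 of 6 genes at least 2-fold higher in mutant than in wild-type log cells, against 10.2% of all genes, with a median difference of 1.11 (0.25 over all genes, and 0.71 for the list with centred columns). They were SRX1, the sulfiredoxin that repairs overoxidised Tsa1 (2.47), TRR2 (1.60) and TRX3 (1.16) of mitochondria, and TRX2 of the cytosol (1.06). The centred median of 0.71 is under 2-fold, so the count of 4 holds on the deposited scale only. SRX1 was low in wild-type log cells, at 2.66 FPKM, and at 19.2 FPKM in mutant log cells. In Q cells TRR1, the cytosolic thioredoxin reductase, was at 72.6 FPKM in the mutant and 0.920 FPKM in wild type (5.26), and TRX1 was at 73.8 and 2.65 FPKM (4.36). TSA1, which they help to reduce, was at 5.44. On the list 6 of 6 genes were at least 2-fold higher, a share near the 94.5% of all genes (median 2.23, 2.81 over all genes, and -0.98 with centred columns).

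Of 13 glutathione and glutaredoxin genes, 1 was past 2-fold upward and 1 downward in DS against log cells of the mutant (7.54% and 28.6% of all genes; median -0.21, and 0.35 centred). In wild type 3 were higher and 2 lower (9.91% and 44.2% of all genes; median -0.11, and 0.80 centred). GTT1, a glutathione transferase, was at 188 FPKM in DS and 217 in log cells of the mutant (-0.21), and at 273 and 51.7 FPKM in wild type (2.38). The glutaredoxin gene GRX2 was higher in both (1.39 in the mutant and 2.12 in wild type), and GRX1 in wild type (2.01, 0.11 in the mutant). Among other peroxidases and repair enzymes, 1 of 6 genes was higher and 0 lower in the mutant (median -0.47, and 0.10 centred), and 4 were higher and 0 lower in wild type (median 1.09). The mitochondrial cytochrome c peroxidase gene CCP1 was higher in both (1.13 in the mutant, 1.72 in wild type). HYR1, which encodes the peroxidase and Yap1 partner also named Gpx3, was at -0.58 in the mutant and 1.07 in wild type.

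Of 10 NADPH supply genes, 5 were at least 2-fold higher and 1 lower in mutant than in wild-type DS cells, against 31.3% and 3.61% of all genes (median 0.98, 0.64 over all genes; 0.23 with centred columns). SOL3 (2.92), GND1 (2.55) and TKL1 (2.36) of the pentose phosphate pathway were the largest of the higher ones. GND2, the minor 6-phosphogluconate dehydrogenase, went the other way: it was at 16.9 FPKM in mutant DS and 165.8 FPKM in wild-type DS cells (-3.22). Of the heme synthesis genes 2 of 8 were at least 2-fold higher and 0 lower in mutant DS cells, the largest difference being that of HEM13 (1.29), with a list median of 0.83 (0.10 with centred columns). For copper, manganese and their delivery 2 of 7 genes were higher, CTR1 (1.36) and SMF1 (1.14), and 0 lower (median 0.83, and 0.09 centred). Both shares were near those of all genes, 31.3% higher and 3.61% lower. The metallothionein gene CRS5, not past 2-fold (0.28), was at 601 FPKM in mutant DS cells and 493 FPKM in wild-type DS cells.

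Peroxisomal beta-oxidation, a source of hydrogen peroxide in the compartment of Cta1, had 8 of 10 genes at least 2-fold higher in DS than in log cells of the mutant and 9 of 10 in wild type, with 0 lower (medians 1.78 and 2.59, against -0.52 and -0.85 over all genes). Of all genes 7.54% were higher and 28.6% lower in the mutant, and 9.91% and 44.2% in wild type. In Q against log cells 8 were higher and 0 lower in the mutant, against 4.36% and 64.9% of all genes (median 1.95, and 3.32 with centred columns). In wild type 5 were higher and 4 lower, against 1.84% and 93.2% of all genes (median 1.47, and 6.21 centred). The median was thus higher in the mutant as deposited and lower in the mutant with centred columns. POX1, the oxidase that releases the peroxide, was at 10.2, 62.7 and 61.9 FPKM in log, DS and Q cells of the mutant, against 4.42, 68.1 and 21.5 FPKM in wild type. Of 13 regulators 1 was higher and 0 lower in mutant than in wild-type DS cells (STB5, 1.41), against 31.3% and 3.61% of all genes, with a median of 0.25 (-0.46 centred). YAP1 was at 63.7 FPKM in mutant and 75.1 FPKM in wild-type DS cells.

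Over 5885 genes with a value in all 6 conditions and at least 10 FPKM in at least one of them, the genes most like each of the 10 were found by the mean absolute difference of log2(FPKM + 1) after each gene was centred on its own mean. The 6 points are conditions that share the scale of the columns, and the measure is a description. For CTT1 they were SNO4 (0.48), GND2 (0.51) and YBR116C (0.59). The place of SNO4 rests on the pseudocount of 1. Its level was 0.271 FPKM in wild-type log cells and 0.292, 0.961 and 0.806 FPKM in mutant log, DS and Q cells. SOD1 had closer neighbours: RME1 (0.11), ACN9 (0.14) and ECM19 (0.16). SOD2 was nearest to CCP1 (0.25), WTM1 (0.25) and ACN9 (0.26), and CTA1 to YMR206W (0.17), CRS5 (0.21) and RRT1 (0.25). GPX1 was nearest to DCS2 (0.32), GDH3 (0.35) and YMR206W (0.44). TSA1 was nearest to HIS4 (0.27), HSP150 (0.32) and HOM3 (0.33), and TSA2 to COX9 (0.17), GPH1 (0.18) and YGR250C (0.19). PRX1 was nearest to YHR033W (0.26), OM14 (0.27) and HSP78 (0.30), AHP1 to YOR1 (0.37), TCB3 (0.38) and YBR126W-A (0.38), and GPX2 to CMK2 (0.16), HLJ1 (0.17) and YNL260C (0.17). Among the 10 genes themselves SOD1 and SOD2 were each other's nearest (0.31), as were CTA1 and GPX1 (0.61) and AHP1 and GPX2 (0.89). CTT1 was 1.14 from its nearest, GPX1.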

How the data were processed

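The deposited values are log2 FPKM, 1 for each condition. The authors normalized them with external controls so that they reflect RNA per cell, as the series design text states. The submitters' processing notes name CASAVA, TopHat2, SAMtools, Cuffdiff and Cufflinks (version 2.2.1), and the labels' protocols describe strand-specific dUTP libraries from rRNA-depleted RNA. Settings, build, annotation, depth and the way libraries were combined: not given in the sources used here. Base 2 was read from the values, since FPKM times length in kb over 5924 matched genes gave 1288200 for wild-type log cells, against 31055485 with base e.

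Of 6602 named rows, 4 with a repeated name were dropped. The mutant DS column holds 109 values, YPR078C to ZRT1, that duplicate the top of mutant Q. These were excluded after the data were seen, and 0 belong to a gene listed here. Comparisons covered 6524 genes reaching 1 FPKM somewhere, all 10 members included, with a pseudocount of 1, which compresses changes near 1 FPKM. With 1 value per condition no model could be fitted. Members and lists were chosen with earlier results of these data known. All members were named, with the 3 genes most like each, and from each list up to 4 genes with the largest change in a comparison given. CRS5, POX1, YAP1, MSN2 and MSN4 were named in other comparisons after their values were seen. The window of 500 upstream bases was also chosen after the data were seen. Python 3.11.15 with pandas 2.3.3 was used, and the calculation was tested on simulated data.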

Additional observations from a re-analysis of the deposited data

Results flagged for a closer look

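For 3 genes the difference between mutant and wild type had opposite signs at 2 harvests, on both the deposited and the centred scale, and the values at those harvests lay at least 2-fold apart as deposited; none of these differences could be tested, since each condition has 1 value. SOD2 was at -0.22 in DS and 1.35 in log cells, which differ by -1.57 (-0.97 and 0.95 with centred columns). AHP1 was at -0.27 in DS and 1.80 in log cells, which differ by -2.07 (-1.02 and 1.40 centred). TSA2 was at 3.23 in Q and -0.13 in DS cells, which differ by 3.36 (1.37 and -0.87 centred), and its wild-type Q level of 0.286 FPKM lies below the pseudocount.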

How the results depend on the processing

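With a pseudocount of 0.1 each of 110 changes (10 genes in 9 comparisons and in 2 differences between genotypes) stayed on its side of 2-fold, and those past it kept their direction; with 10, 100 did and 10 fell below 2-fold. Centring the columns mattered more: 67 did so, 8 fell below 2-fold in the same direction, 18 passed it newly and 17 past 2-fold as deposited turned direction. Another 16 changes, not past 2-fold as deposited, also turned, which makes 33 of 110. The count past 2-fold between mutant and wild-type DS cells was 4 with centred columns and 2 as deposited. Of the changes past 2-fold, turned values were, in wild-type Q against log cells, SOD1 0.55, SOD2 1.63, PRX1 3.61, AHP1 1.97 and GPX2 0.11; in wild-type Q against DS cells, CTT1 0.93, CTA1 2.84, AHP1 1.13, GPX1 1.00 and GPX2 0.89; in mutant against wild-type Q cells, SOD1 -1.26, SOD2 -1.74, PRX1 -0.97, AHP1 -2.74 and GPX2 -0.027. For the mutant change minus the wild-type change, log to Q, they were SOD1 -1.57 (1.81 as deposited) and GPX1 -1.71 (1.72).

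With a pseudocount of 10, the counts over all genes that moved by over 1.5 times were, in mutant Q cells, 181 higher than in log (279) and 83 higher than in DS (169). Between genotypes they were 313 higher (658) and 80 lower (219) in log, 1058 (2003) and 140 (231) in DS, and 8 lower (22) in Q. In wild-type Q against DS cells 2 were higher, and 17 with a pseudocount of 0.1 (11). Filters of 0 or 10 FPKM moved no such count by over 1.5 times. In 250 upstream bases AGGGG was in 8 of the 10 genes, against 9 in 500, and in 18.8% of all 250-base windows. TTACTAA was there in 1 gene, against 6 in 500, which is near its share of 6.67% of the shorter windows. CCAAT was in 6, against 8 in 500, and in 35.4% of the shorter windows. CTT1 and GPX1 each held 1 copy of AGGGG in the shorter window, and TSA2 no longer held it. The classes of genes by AGGGG copies were counted in 500 bases only. No paired analysis was possible because the table has no replicate columns; for the same reason no replicate could be left out.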
